A study of Arabidopsis thaliana with 4 samples.

Results

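JMT, OPCL1 and THI2.1 are 3 Arabidopsis thaliana genes of the jasmonate pathway, chosen as the probe sets that the array's annotation pairs with exactly 1 gene of those symbols. They are 3 of 9571 genes with a probe set of their own, and each had 1, out of 16319 probe sets on the part of the array analysed here. All 3 entered the test, which covered 12239 probe sets, but THI2.1 passed its brightness filter only through the PBZ_T72 arrays. The RNA came from rosette leaves 5 to 8 of plants that were 5 weeks old, grown in short days. One group, PBZ_T72, was taken 72 h after a drench of the roots with probenazole (PBZ) at 0.5 mM. PBZ is a chemical inducer of plant resistance, used by the submitters to raise the plants' own salicylic acid. The other, PBZ_T0, was taken before the drench. Each group had 2 biological replicates, each on its own Affymetrix array. The labels name no ecotype, genotype or pooling of plants, and leaves of undrenched plants at 72 h were not analysed here, so PBZ and the 72 h of time cannot be told apart.

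Jasmonates are lipid-derived hormones of wounding, of defence against insects and necrotrophic fungi, and of stamen development. They begin as plastid fatty acids, are finished in the peroxisome by rounds of beta-oxidation, and act as the isoleucine conjugate, which the receptor COI1 perceives before JAZ repressors are degraded and MYC factors are freed. Salicylic acid serves defence against biotrophic pathogens, and the 2 hormones are textbook opponents: salicylic acid signalling through NPR1 is known to lower many jasmonate-responsive transcripts. The 3 genes stand at different places in this route. OPCL1 is a peroxisomal ligase that attaches coenzyme A to a jasmonate precursor, JMT converts jasmonic acid to its volatile methyl ester, and THI2.1 encodes a thionin, a small antimicrobial peptide whose transcript is known to respond to methyl jasmonate.

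The 3 genes did not move together. JMT was lower on both PBZ_T72 arrays, by a factor of 3.26, OPCL1 overlapped between the groups, and THI2.1 was higher on both PBZ_T72 arrays but close to the dim end of the signals. None of the 3 passed the test across all probe sets as the arrays were deposited (limma, 2-sided, Benjamini-Hochberg adjusted p under 0.05). Over all tested probe sets, 5.34% were called higher and 0.245% lower, and 36.1% had both PBZ_T72 arrays above both PBZ_T0 arrays, against 10.6% with both below. A lack of overlap between 2 and 2 arrays was thus common. The balance of directions depended on the scaling, with 653 called higher and 30 lower as deposited, against 546 and 278 after quantile normalization.

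**Figure D1:**
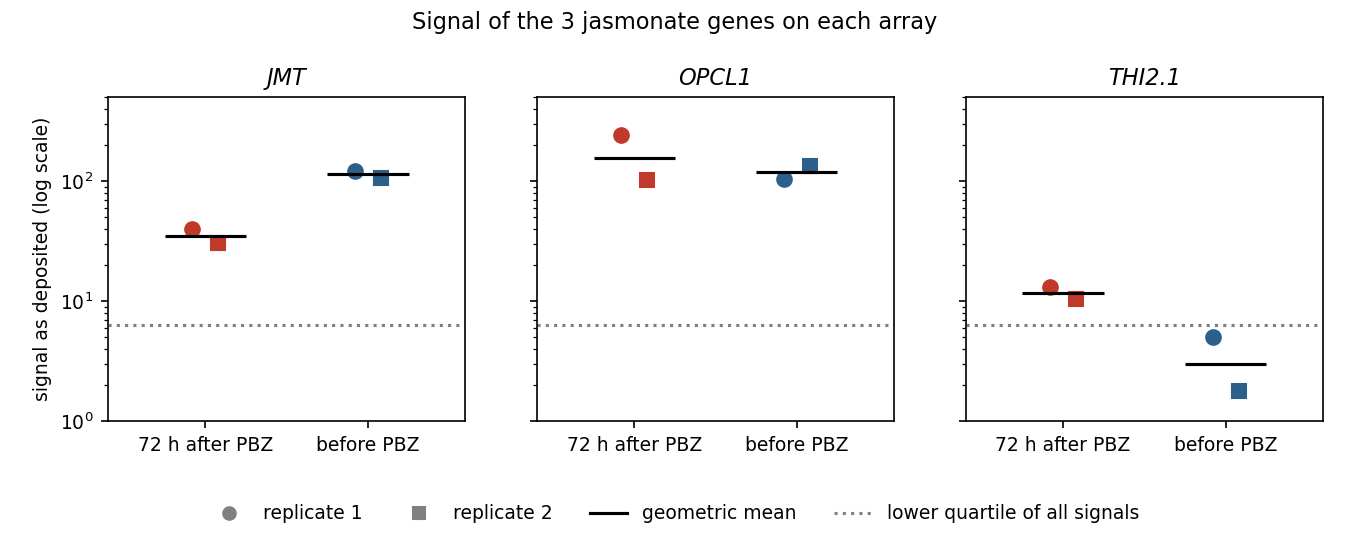
Deposited signal (log axis) of JMT, OPCL1 and THI2.1 on the 2 arrays taken 72 h after PBZ and the 2 taken before it. Points are arrays, bars are geometric means and the dotted line is the lower quartile of all signals, 6.3. JMT lies at 30.4 and 40.0 after PBZ and above 100 before it, OPCL1 overlaps, and both THI2.1 values before PBZ lie under the dotted line.

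OPCL1, the synthesis gene, had signals of 243.1 and 101.6 on the PBZ_T72 arrays, against 105.0 and 134.1 on the PBZ_T0 arrays. The highest and the lowest of the 4 values were thus both after PBZ. Its mean signal was 172 ± 100 in PBZ_T72 and 120 ± 20.6 in PBZ_T0 (SD, n = 2 each). The log2 change was 0.41 ± 0.58 (SE, limma adjusted p = 0.791), with a 95% interval from -0.78 to 1.59. That interval holds no change, a modest fall and a 2-fold rise, so none of these could be told from the others with 2 arrays a group. The log2 gap between the 2 PBZ_T72 arrays, 1.26, was larger than the difference between the groups and larger than the same gap in 84.2% of tested probe sets. Without PBZ_T72 replicate 1 the log2 change turned to -0.22 (adjusted p = 0.972), and without PBZ_T72 replicate 2 it was 1.03 (adjusted p = 0.809).

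JMT, the methyltransferase, had signals of 40.0 and 30.4 on the PBZ_T72 arrays, against 120.4 and 107.1 on the PBZ_T0 arrays. All 4 arrays read well above the lower quartile of all signals. Each PBZ_T72 array was below each PBZ_T0 array, as for 10.6% of all tested probe sets. The means were 35.2 ± 6.79 in PBZ_T72 and 114 ± 9.40 in PBZ_T0 (SD, n = 2 each). Replicates lay close to each other, with log2 gaps of 0.40 in PBZ_T72 and 0.17 in PBZ_T0, and 38.7% and 11.9% of tested probe sets had a smaller gap in those groups. The log2 change was -1.70 ± 0.56 (SE, 95% interval from -2.84 to -0.56), with an unadjusted p of 0.00481 and a limma adjusted p of 0.0708. It was the 196th lowest change of the 12239 tested, with 1.59% of probe sets lower. In bulk leaf RNA, fewer cells that express a gene and less of its RNA per cell cannot be told apart.

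Whether JMT passed depended on how the arrays were scaled to each other and on the filter for dim probe sets. Median signals per array were 32.5 and 27.1 in PBZ_T72 and 19.2 and 27.6 in PBZ_T0, and across the 12239 tested probe sets the change had a log2 median of 0.37. Relative to that median the log2 change of JMT was -2.08, that of OPCL1 was 0.032 and that of THI2.1 was 1.58. As a multiple of its array's median, JMT read 1.23 and 1.12 in PBZ_T72 and 6.27 and 3.88 in PBZ_T0, so the groups also stayed apart on that scale. With each array centred on its median, JMT was called lower (log2 change -2.07 ± 0.46, limma adjusted p = 0.00582), along with 1.46% of all probe sets. After quantile normalization it was called as well (-2.17 ± 0.46, adjusted p = 0.00405), along with 2.27% of all. It also passed when the lowest 0.5 of probe sets by mean was left out (adjusted p = 0.0457, with 0.588% of all called lower). With each array left out in turn it did not pass, at adjusted p-values from 0.0784 to 0.577.

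**Figure D2:**
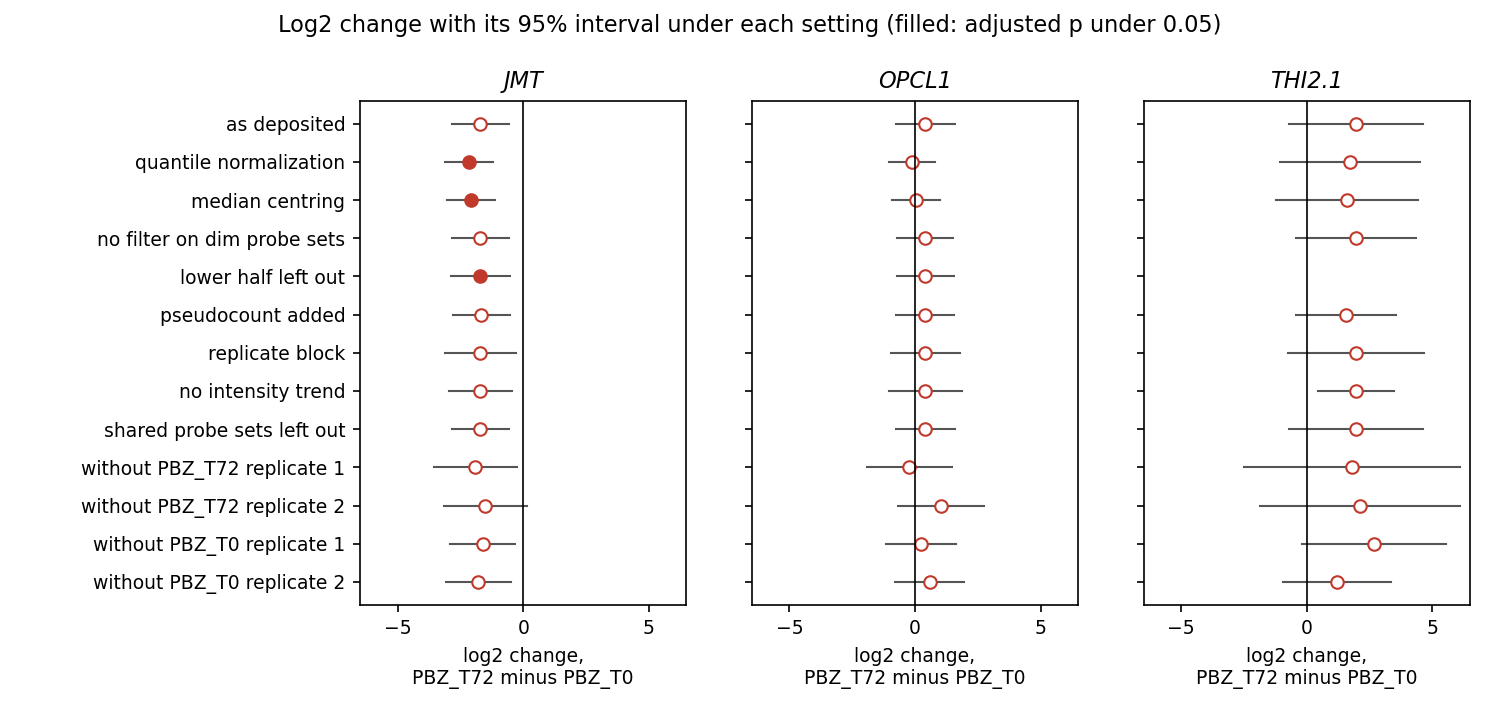
Log2 change, PBZ_T72 minus PBZ_T0, of each gene (points) with its 95% interval (lines) under each processing setting, filled where the adjusted p was under 0.05. JMT ranges from -2.17 to -1.51 and is filled in 3 settings. Only the 2 rescalings could have turned its direction. OPCL1 lies on either side of 0, and THI2.1 has the widest intervals and no value where the lowest 0.5 was left out.

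THI2.1, the response gene, had signals of 13.0 and 10.4 on the PBZ_T72 arrays, against 5.0 and 1.8 on the PBZ_T0 arrays. Both PBZ_T0 arrays were under 6.3, the lower quartile of all signals, and both PBZ_T72 arrays were under 25.7, the median of all signals. The means were 11.7 ± 1.84 in PBZ_T72 and 3.4 ± 2.26 in PBZ_T0 (SD, n = 2 each). The log2 change was 1.95 ± 1.31 (SE, limma adjusted p = 0.491), with a 95% interval from -0.73 to 4.63. With the PBZ_T0 signals set to 6.3, the ratio of geometric means, PBZ_T72 over PBZ_T0, was 1.85, against 3.88 on the measured signals. The gap between the 2 PBZ_T0 arrays, 1.47 on the log2 scale, was larger than that of 85.8% of tested probe sets, and 1.8 is close to 1.3, the 10th percentile of all signals. The fold of THI2.1 was therefore poorly measured. THI2.1 also passed the brightness filter only through its PBZ_T72 arrays, where it was high, so its test gives no support for a rise. Its groups did not overlap, so of the 11 alternatives that tested it only the 2 rescalings could have turned its direction. The log2 change was 1.73 after quantile normalization (limma adjusted p = 0.526) and 1.59 with median centring (adjusted p = 0.586). THI2.1 passed in none of the 11.

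Few other jasmonate genes could be tested. Of 91 loci listed for synthesis, conversion, perception and response, 11 had a probe set of their own in the annotation and 7 were tested, the 3 genes above among them. That annotation paired 9685 of the 16319 probe sets with 1 gene and 356 with several, and named no gene for the others. A locus without a probe set of its own may thus still be on the array. None of the 7 was called in either direction by limma, where 5.34% of all tested probe sets were called higher and 0.245% lower, so a count of 0 of 7 is near the background. JMT alone of the 7 had an unadjusted p under 0.05. The median log2 change of the 4 tested besides JMT, OPCL1 and THI2.1 was 0.33, beside 0.37 over all probe sets tested, and each of the 4 had an interval wide enough to hold changes either way. AIM1, a multifunctional enzyme of peroxisomal beta-oxidation, had signals of 407.5 and 242.9 in PBZ_T72, against 191.8 and 293.9 in PBZ_T0, and a log2 change of 0.41 ± 0.54 (SE). MYC4, a transcription factor released from JAZ repressors, had 221.3 and 224.6 in PBZ_T72, against 94.9 and 308.5 in PBZ_T0, and a log2 change of 0.38 ± 0.59. Both overlapped between the groups, and both turned below 0 after quantile normalization, to -0.17 for AIM1 and -0.20 for MYC4.

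AT1G70480 and AT2G38240, which the reference names by locus only, were at log2 changes of 0.027 ± 0.56 and 0.29 ± 0.70 (SE). Each turned below 0 when the arrays were centred on their medians, to -0.34 and -0.081. Another 4 listed genes were too dim to be tested. The plastid lipase gene DGL and the plant defensin gene LCR67 (PDF1.1) were under 6.3 on all 4 arrays, and AT3G11180 on 3 of them. JRG21, named in the reference as a jasmonate-regulated gene, read 9.6 and 7.9 in PBZ_T72, against 2.1 and 3.0 in PBZ_T0. Like THI2.1 it was above 6.3 on the PBZ_T72 arrays alone.

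Of 39 loci listed for salicylate synthesis and response, 5 had a probe set of their own. WRKY53, GRX480 and UGT76B1 were tested and called higher, as were 5.34% of all tested probe sets. UGT76B1 passed the brightness filter only through its PBZ_T72 arrays, and BSMT1 and UGT74F1 were too dim to be tested, so the count of called genes says nothing about the list. WRKY53, a transcription factor of salicylic acid signalling and leaf senescence, read 806.6 and 425.9 in PBZ_T72, against 11.1 and 46.2 in PBZ_T0 (log2 change 4.69 ± 0.63 SE). GRX480, a glutaredoxin that binds TGA factors and is known to repress jasmonate-responsive transcription when overexpressed, read 105.1 and 152.1 in PBZ_T72, against 11.6 and 2.8 in PBZ_T0 (log2 change 4.47 ± 0.66). The 2 groups did not overlap for either gene, and 36.1% of all tested probe sets likewise had both PBZ_T72 arrays above both PBZ_T0 arrays.

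UGT76B1, a glucosyltransferase that acts on salicylic acid, read 384.2 and 260.1 in PBZ_T72, against 0.6 and 3.8 in PBZ_T0. UGT74F1, another glucosyltransferase, was under 6.3 on all 4 arrays, and BSMT1, a relative of JMT, was under 6.3 on all but PBZ_T0 replicate 2. No direction is read from either. JMT was the 1 of 7 tested jasmonate genes with a negative change as deposited, while OPCL1, AIM1, MYC4 and AT1G70480 also turned below 0 after quantile normalization. The difference between the jasmonate and the salicylate list was not tested.

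**Figure D3:**
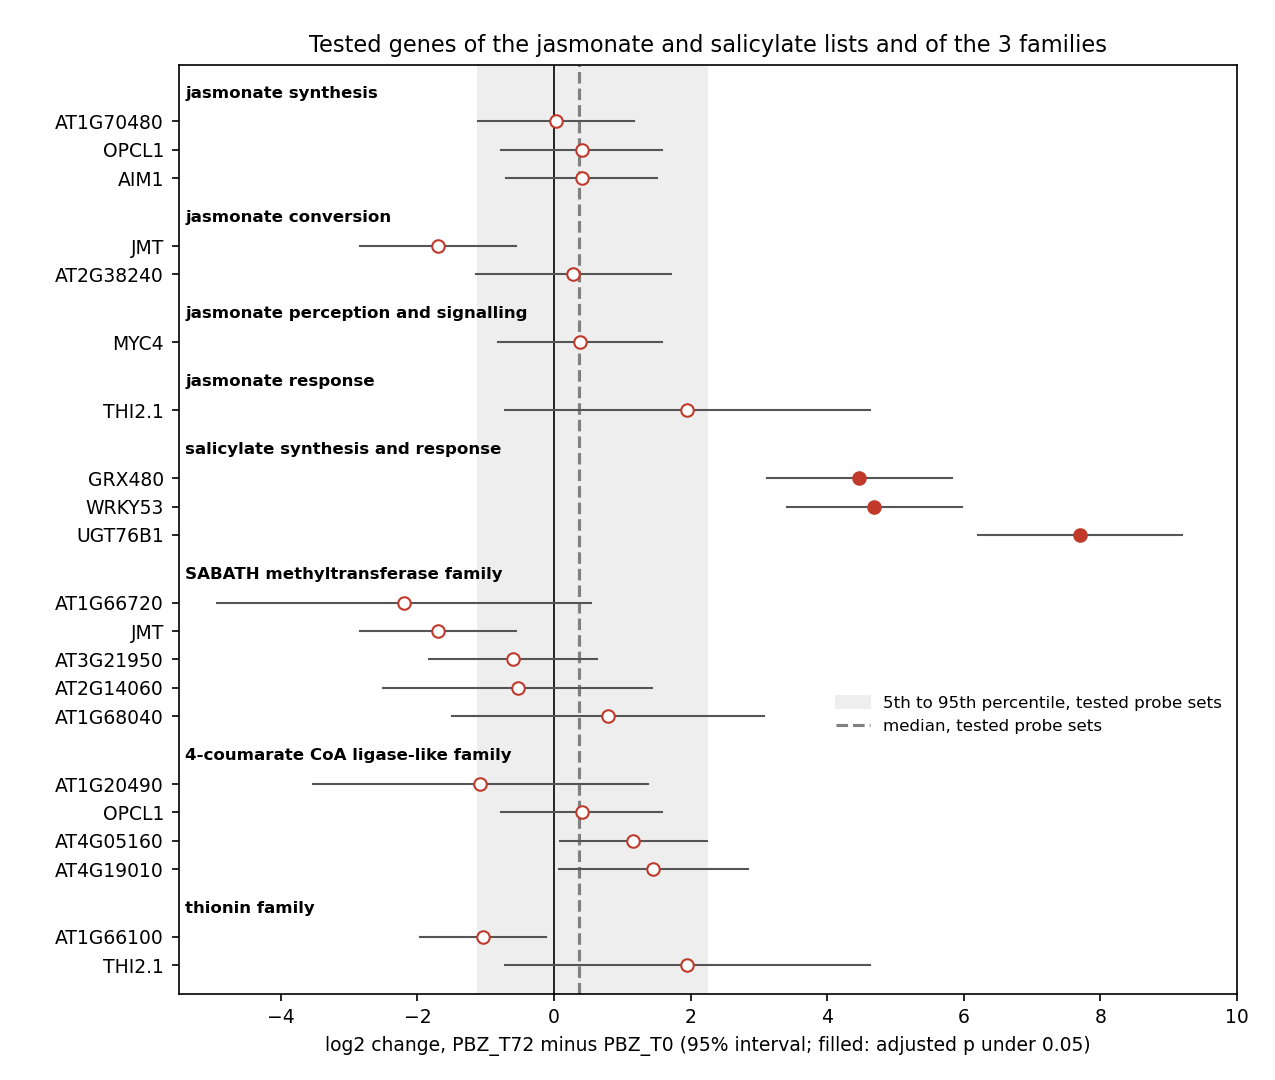
Log2 change, PBZ_T72 minus PBZ_T0, of each tested gene of the jasmonate and salicylate lists and of the families of JMT, OPCL1 and THI2.1, with 95% intervals. Points are filled where the adjusted p was under 0.05, the shaded band holds the 5th to 95th percentile of all tested probe sets and the dashed line is their median, 0.37. The 3 salicylate genes lie above 4, JMT lies left of the band, and the other jasmonate genes lie inside it.

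JMT belongs to the SABATH methyltransferases, which methylate the carboxyl groups of plant hormones and other small acids. Of 24 listed loci 6 had a probe set of their own and 5 were tested. None was called by limma, near the background of 5.34% higher and 0.245% lower, 1 (JMT) had an unadjusted p under 0.05, and the median log2 change was -0.60, with 4 of 5 below 0. BSMT1, which makes methyl salicylate and methyl benzoate, read 0.8 and 1.6 in PBZ_T72, against 2.6 and 12.1 in PBZ_T0. It was too dim to be tested, with only PBZ_T0 replicate 2 above 6.3. AT1G66720 had 9.0 and 0.9 in PBZ_T72, against 13.5 and 12.6 in PBZ_T0 (log2 change -2.20 ± 1.34 SE, adjusted p = 0.441), and 1 of its PBZ_T72 arrays was under 6.3. It passed the brightness filter only through its PBZ_T0 arrays, where it was high, so its test gives no support for a fall. The 4 changes below 0 include this gene and JMT itself, so that count says nothing about the family. AT3G21950, AT2G14060 and AT1G68040 had log2 changes of -0.60, -0.53 and 0.79. JMT was above 6.3 on all 4 arrays and its groups did not overlap, and both held together for none of the other 5. Over all tested probe sets, 10.6% had both PBZ_T72 arrays below both PBZ_T0 arrays.

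OPCL1 lies in the reference's gene order directly after AT1G20480, AT1G20490 and AT1G20500, which were listed with it among the 4-coumarate CoA ligase-like genes. Those 3 neighbours were dim. AT1G20480 and AT1G20500 were under 6.3 on all 4 arrays and were not tested, and AT1G20490 read 10.0 and 2.3 in PBZ_T72, against 13.3 and 7.7 in PBZ_T0. Elsewhere in the family AT4G05160 read 652.0 and 493.4 in PBZ_T72, against 179.4 and 359.1 in PBZ_T0 (log2 change 1.16 ± 0.53 SE). AT4G19010 had 31.5 and 51.3 in PBZ_T72, against 7.3 and 29.6 in PBZ_T0 (1.45 ± 0.68, adjusted p = 0.267). Of 4 tested genes of the family limma called 0, near the background of 5.34% higher and 0.245% lower, and these 2 had an unadjusted p under 0.05. Without PBZ_T0 replicate 2 the log2 change of AT4G19010 was 2.46, and without PBZ_T0 replicate 1 it was 0.44.

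Of the 4 loci listed as thionins, 3 had a probe set and 2 were tested. AT1G66100 read 641.6 and 1104.9 in PBZ_T72, against 1274.6 and 2352.3 in PBZ_T0. Both PBZ_T72 arrays were thus below both PBZ_T0 arrays, as for 10.6% of all tested probe sets. At a log2 change of -1.04 ± 0.45 AT1G66100 was not called as deposited (SE, limma adjusted p = 0.222). It was called lower after quantile normalization (-1.46, adjusted p = 0.0136) and when arrays were centred on their medians (-1.41, adjusted p = 0.0369). In those settings 2.27% and 1.46% of all probe sets were called lower. AT2G15010 was too dim to be tested, at 7.2 and 0.6 in PBZ_T72, against 8.1 and 7.8 in PBZ_T0.

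Genes next to the 3 were also read, and calls among them are set beside the background of 5.34% higher and 0.245% lower. Of the 10 protein-coding neighbours of JMT, 5 on each side, 6 had a probe set and were tested, and limma called none, with log2 changes from -0.36 (AT1G19650) to 1.02 (PDF1.4, a plant defensin gene). None of the 6 had an unadjusted p under 0.05. Of the 10 neighbours of OPCL1, 7 had a probe set, 3 were tested and limma called none, nor had any of the 3 an unadjusted p under 0.05. Among the 3 tested neighbours of THI2.1, AT1G72240 was called higher, at 99.9 and 113.5 in PBZ_T72, against 10.7 and 31.0 in PBZ_T0 (log2 change 2.55 ± 0.60 SE, adjusted p = 0.00643).

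The probe sets nearest in pattern were sought by the distance between log2 signals on the 4 arrays, each probe set centred on its own mean, among the other tested probe sets paired with 1 gene. With 4 arrays such likeness is a description of these samples. The probe sets were picked on the signals that the test uses, so calls among them give no further evidence. For JMT the nearest were ACT11, an actin gene, at a distance of 0.29, TBL26 at 0.34 and AT1G78070 at 0.35. ACT11 read 21.3 and 20.2 in PBZ_T72, against 83.5 and 65.2 in PBZ_T0 (log2 change -1.83 ± 0.57 SE, limma adjusted p = 0.0532). TBL26 read 569.2 and 601.2 in PBZ_T72, against 1951.1 and 1848.2 in PBZ_T0. It had almost the same log2 change as JMT, -1.70, but a smaller SE of 0.44, and it was called (adjusted p = 0.0152).

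For OPCL1 the nearest were AT2G40650, AT4G32160 and AT4G36140, at distances of 0.11 to 0.12. All 3 shared its high value on PBZ_T72 replicate 1, the array with the highest median signal, and overlapped between the groups. For THI2.1 they were AT1G11125, AT2G27390 and AT1G60970, at 0.14 to 0.27, each with PBZ_T0 replicate 2 under 6.3. None of these 6 was called by limma, near the background of 5.34% higher and 0.245% lower. That too follows from how they were picked. AT1G60970 alone had an unadjusted p under 0.05.

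**Figure D4:**
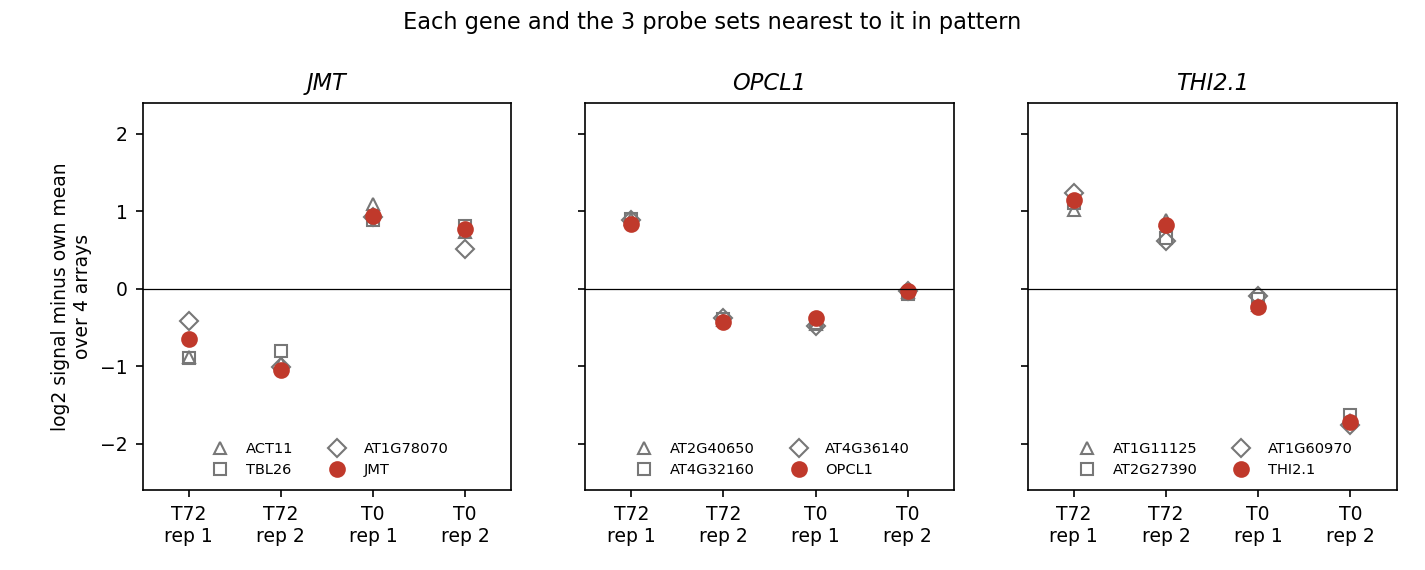
Log2 signal minus the gene's own mean over the 4 arrays, for JMT, OPCL1 and THI2.1 (filled circles) and the 3 probe sets nearest to each (open symbols), with the 2 PBZ_T72 arrays on the left of each panel. JMT and its neighbours split by group, OPCL1 and its neighbours stand out on PBZ_T72 replicate 1, and THI2.1 and its neighbours are lowest on PBZ_T0 replicate 2.

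The tissue label was checked with leaf genes. Of 7 photosynthesis markers 3 were measured, with a summed signal of 10083 and 9738 in PBZ_T72, against 12949 and 15208 in PBZ_T0. They were thus bright on all 4 arrays and, like JMT, lower in sum after PBZ, and their part in the result for JMT was not tested. None of the 3 was called by limma, near the background of 5.34% higher and 0.245% lower. The log2 changes were -0.97 ± 0.36 (SE) for PRK, -0.65 ± 0.35 for SBPASE and -0.091 ± 0.33 for LHCB4.2. PRK alone of the 3 had an unadjusted p under 0.05. PRK passed as lower with the replicate number as a block (limma adjusted p = 0.0314), along with 29 probe sets in all. It also passed after quantile normalization (0.0189) and with arrays centred on their medians (0.0187). In those 2 settings 2.27% and 1.46% of all probe sets were called lower. SWEET11, a phloem sugar transporter and the measured 1 of 7 vascular markers, read 1118.3 and 1342.5 in PBZ_T72, against 2008.7 and 1472.7 in PBZ_T0. FMA (FAMA), 1 of 2 guard cell markers, read 28.9 and 35.5 in PBZ_T72, against 22.5 and 24.7 in PBZ_T0. Of 6 flower and root markers EXPA7 was measured, too dim to be tested, and none of the listed epidermis markers had a probe set paired with it alone.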

How the data were processed

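Leaf RNA of 2 PBZ_T72 and 2 PBZ_T0 samples, grouped by title, was hybridised as biotin-labelled cRNA to 1-colour Affymetrix arrays, per the labels' protocols. The deposited table holds 1 intensity per probe set and array on a linear scale, made with GCOS, per the submitters' processing notes. GCOS has no version there, and its scaling target is not given in the sources used here. Detection calls were not used here. After 64 control rows were set aside, intensities were log2-transformed (2 values of 0 became 0.1), and the 4080 probe sets in the lowest 0.25 by mean were dropped. Groups were compared over the remaining 12239 with limma 3.58.1 (R 4.3.3; lmFit, then eBayes with an intensity trend; 2 residual and 27.2 prior degrees of freedom). Having only 4 arrays limits the precision. Alternatives were 2 other scalings, 2 other filters on dim probe sets, a pseudocount of 1.3, a replicate block, a fit without the trend, one without shared probe sets, and each array left out in turn. The platform's annotation named the probe sets. The TAIR10.1 gene table named the loci. Its coordinates were used only to put the protein-coding genes in order for the neighbours. No positions or distances are given, as the files name no build.

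The members and gene lists were chosen with earlier results of these data known. Named were the 3 members, every gene measured in the 3 families, the called genes and up to 6 others of each pathway list, and the 3 probe sets nearest to each member. The level of 6.3, below which a signal was treated as too dim for a fold, was taken over from earlier work on these data. Neighbouring genes were looked at after the first results. For 5 loci of the lists, 4 of them measured, the name written in the list is not in the reference. Family members listed by locus alone had no name to check and were placed from general knowledge. Among them are AT1G66720, AT3G21950, AT4G05160, AT4G19010 and AT1G66100.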

Additional observations from a re-analysis of the deposited data

How the results depend on the processing

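The groups did not overlap for JMT, so only the 2 rescalings could have turned its direction. The log2 change of JMT ranged from -2.17 to -1.51 in 12 alternatives. It passed under quantile normalization (-2.17), with arrays centred on their medians (-2.07) and with the lowest 0.5 of probe sets left out (-1.70), which gave 1 jasmonate gene called lower in each of these 3 and 0 otherwise. With the lowest 0.5 left out fewer probe sets, 8160, were tested. OPCL1 turned under quantile normalization (-0.12), and with each array left out in turn it ranged from -0.22 to 1.03. THI2.1 ranged from 1.22 to 2.69 in 11 alternatives, and with the lowest 0.5 left out it had no value. For the 3 salicylate genes, the count of calls was 3 in each alternative but that one. There UGT76B1 was not tested and the count was 2, beside 735 of 8160 probe sets called higher. WRKY53 and GRX480 passed that stricter filter only through their PBZ_T72 arrays, as UGT76B1 did the main filter. Under these filters the count therefore says nothing about the list. With no filter on dim probe sets all 3 were called higher, along with 447 probe sets in all. Over all probe sets 653 were called higher and 30 lower, against 157 and 8 with no intensity trend. The lower calls numbered 278 under quantile normalization, 179 with median centring, 15 with no filter and 48 with the lowest 0.5 left out. Leaving out each array in turn gave 217 to 1136 higher and 12 to 38 lower. With 1 array left out, the lone array of a group is assumed to vary like the other group.

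Changes near 0 turned direction. Quantile normalization gave AIM1 -0.17, AT1G70480 -0.53 and MYC4 -0.20, and median centring gave AT1G70480 -0.34 and AT2G38240 -0.081. With each array left out in turn, AT1G70480 ranged from -0.25 to 0.30, AT2G38240 from -0.011 to 0.58 and MYC4 from -0.47 to 1.23. In the same way AT2G14060 ranged from -1.22 to 0.15, AT3G21950 from -1.33 to 0.14 and LHCB4.2 from -0.27 to 0.088. The groups share replicate numbers, but samples of the same number did not deviate together (correlation across probe sets -0.064), so the numbers are not taken as pairs. With the replicate block JMT had an adjusted p of 0.204, OPCL1 0.896 and THI2.1 0.623, and no call of the 3 genes changed. Except where an alternative tests fewer probe sets or samples, the cause was not tested.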
